A study of Mus musculus with 16 samples.

Results

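The sterol and fatty acid synthesis genes are a group of 30 protein-coding genes, listed by symbol as genes of lipid synthesis under the control of the SREBP transcription factors, and all 30 were found among the 54453 genes of the table. They were followed in 16 immortalised mouse embryonic fibroblast (MEF) lines, namely MEF-1 and MEF-2 as parental lines, grown out of sibling E13.5 C57BL/6J embryos (MEF-1 male, MEF-2 female) and immortalised by passage through crisis, and 7 clonal lines of each, every clonal line being the progeny of a sorted single cell. All lines were kept in high glucose DMEM with 10% serum and taken at 75% confluency. Each line is represented by 1 library of total RNA depleted of ribosomal RNA, so the 7 clonal lines of a set are replicates of the set, whereas each parental line has no replicate. Clonal lines passed through a single cell and a series of wells of growing size that the parental lines did not, so that cloning and culture history cannot be told apart here, and the sets differ in embryo, sex and karyotype at once.

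Cholesterol is built from acetyl-CoA. The mevalonate segment leads to farnesyl diphosphate, squalene synthase commits it to sterols, and a chain of oxidations, reductions and demethylations turns lanosterol into cholesterol. Fatty acids are made from cytosolic acetyl-CoA by carboxylation, synthesis of palmitate, elongation and desaturation. Both routes share the SREBP transcription factors, which sit in the endoplasmic reticulum with the escort protein Scap and are held there by the Insig proteins when sterols are plentiful. When sterols are scarce, SREBP is carried to the Golgi apparatus, cut, and enters the nucleus, where it acts with the factors NF-Y and Sp1 on promoters of these genes. The group was therefore read in 4 segments: mevalonate (7 genes), squalene and sterol (11 genes), regulation and transport (6 genes) and fatty acid synthesis (6 genes).

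Promoter sequences are shown for genes on which the results below turn: Hmgcs1 and Idi1, which followed each other closely from clone to clone, Lss and Nsdhl, the members called between parental and clonal lines, and Elovl6, the member that differed most between the clonal sets. Of the 30 members, 24 had an entry in the RefSeq promoter table of build GRCm38.p6, whose windows hold 250 bases before and 50 after an annotated start. The 150 bases before the start are printed for chr13:119690201-119690350, chr13:8885456-8885605, chr10:76531455-76531604, chrX:72918371-72918520 and chr3:129532236-129532385, in that order and each on the + strand. Starts here, and in the distances below, are RefSeq starts. In the GENCODE annotation used for gene positions, Idi1, Lss and Elovl6 begin within their printed bases, at 8885501, 76531588 and 129532355. Hmgcs1 and Nsdhl begin past theirs, at 119690379 and 72918557. Capitals mark CCAAT (the letters bound by NF-Y), GGGCGG (a GC box, bound by Sp1) and TCACNCCAC (a form of the sterol regulatory element), on either strand.
Hmgcs1: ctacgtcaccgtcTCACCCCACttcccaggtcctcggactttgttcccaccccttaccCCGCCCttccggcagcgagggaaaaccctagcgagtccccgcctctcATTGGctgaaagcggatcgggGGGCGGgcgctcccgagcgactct
Idi1: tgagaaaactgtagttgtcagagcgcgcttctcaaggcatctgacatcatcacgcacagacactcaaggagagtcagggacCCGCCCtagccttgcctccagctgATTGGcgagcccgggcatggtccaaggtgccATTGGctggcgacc
Lss: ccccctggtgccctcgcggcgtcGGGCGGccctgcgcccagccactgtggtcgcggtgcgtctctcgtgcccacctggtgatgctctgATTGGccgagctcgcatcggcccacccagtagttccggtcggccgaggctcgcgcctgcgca
Nsdhl: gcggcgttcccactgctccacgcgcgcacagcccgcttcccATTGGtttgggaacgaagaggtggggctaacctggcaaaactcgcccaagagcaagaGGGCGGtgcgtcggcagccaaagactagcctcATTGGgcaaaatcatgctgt
Elovl6: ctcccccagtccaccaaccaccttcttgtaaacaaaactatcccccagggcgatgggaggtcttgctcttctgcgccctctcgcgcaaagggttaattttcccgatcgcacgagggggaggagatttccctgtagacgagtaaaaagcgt
In the Hmgcs1 window the sterol regulatory element lay 137 to 129 bases before the start, and the nearest inverted CCAAT lay 45 to 41 bases before it, the distance also found for an inverted CCAAT of Idi1. Members and genes tested were counted if any of their windows held a match, and the 24 members had 32 windows. Shares of all promoters are per window, an unlike unit. Over the 300-base windows and both strands, CCAAT was present at 20 of the 24 members with an entry (83.3%), against 42.5% of the 11715 genes tested that had one and 37.4% of all 32851 promoters. The members without it were Acaca, Acat2, Elovl6 and Scap. GGGCGG was also present at 20 members (83.3%), against 65.8% of the genes tested and 35.7% of all promoters. TCACNCCAC was found at Hmgcs1 alone (1.47% of the genes tested and 1.24% of all promoters), CACCCCAC, whose letters overlap it, at Acat2 and Hmgcs1 (3.93% and 2.87%), and the palindromic E-box CACGTG at Dhcr7, Hsd17b7, Insig1, Sc5d and Scap (11.2% and 7.15%). A match describes these letters in this window only.

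The deposited values are regularised log (rlog) values, on the log2 scale and normalised for library size by the authors, so a difference of 1 is a doubling before the shrinkage that the transformation applies. Levels of different genes are not compared, as the values are not per length. The number of reads behind a line is unknown. Averages of the members over the 16 lines lay between 8.90 and 16.45, and all 30 were among the 15278 protein-coding genes with an average above 0 that were tested. As a check of the cell type, Col1a1, Col1a2, Col3a1, Fn1 and Vim had mean values of 18 or higher in both sets, whereas Adipoq, Cidec, Sox10, Myod1 and Tie1 were below 0 in all groups. Other genes of the lists for other cell types were not so low. Clonal means in MEF-1 and MEF-2 were 10.30 and 12.20 for Tubb3 (neural) and 7.44 and 7.40 for Cdh1 (epithelial). They were 8.53 and 7.15 for Fabp4 (adipocyte) and 4.82 and 5.16 for Cd68 (haematopoietic). Thy1 (2.95 ± 0.23 in MEF-1 clonal lines) was near the bottom of the scale. Fap was low as well (4.81 ± 0.82 in MEF-1 and 2.96 ± 0.41 in MEF-2 clonal lines). Lum, Pdgfra, Fap and Col3a1 were lower in MEF-2, so the fibroblast list was not uniform either.

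The parental lines stood above their own clones in most of these genes. In 24 of 30 members both parental lines lay above all 7 of their clonal lines, against 4.85% of all genes tested. Taken singly, the MEF-1 parental line lay above its clones in 24 members (20.2% of all genes) and the MEF-2 parental line in 28 (15.8%), and neither lay below its clones in any member. Each set has 1 parental library and the members varied together between lines, so the members counted are not independent observations. Over the members, the parental line exceeded the clonal mean by a median of 0.58 (MEF-1) and 0.49 (MEF-2), whereas over all genes these medians were -0.02 and 0.00. All 7 mevalonate genes and 10 of 11 squalene and sterol genes were above in both sets, 5 of 6 fatty acid synthesis genes, and 2 of 6 regulation and transport genes.

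**Figure D1:**
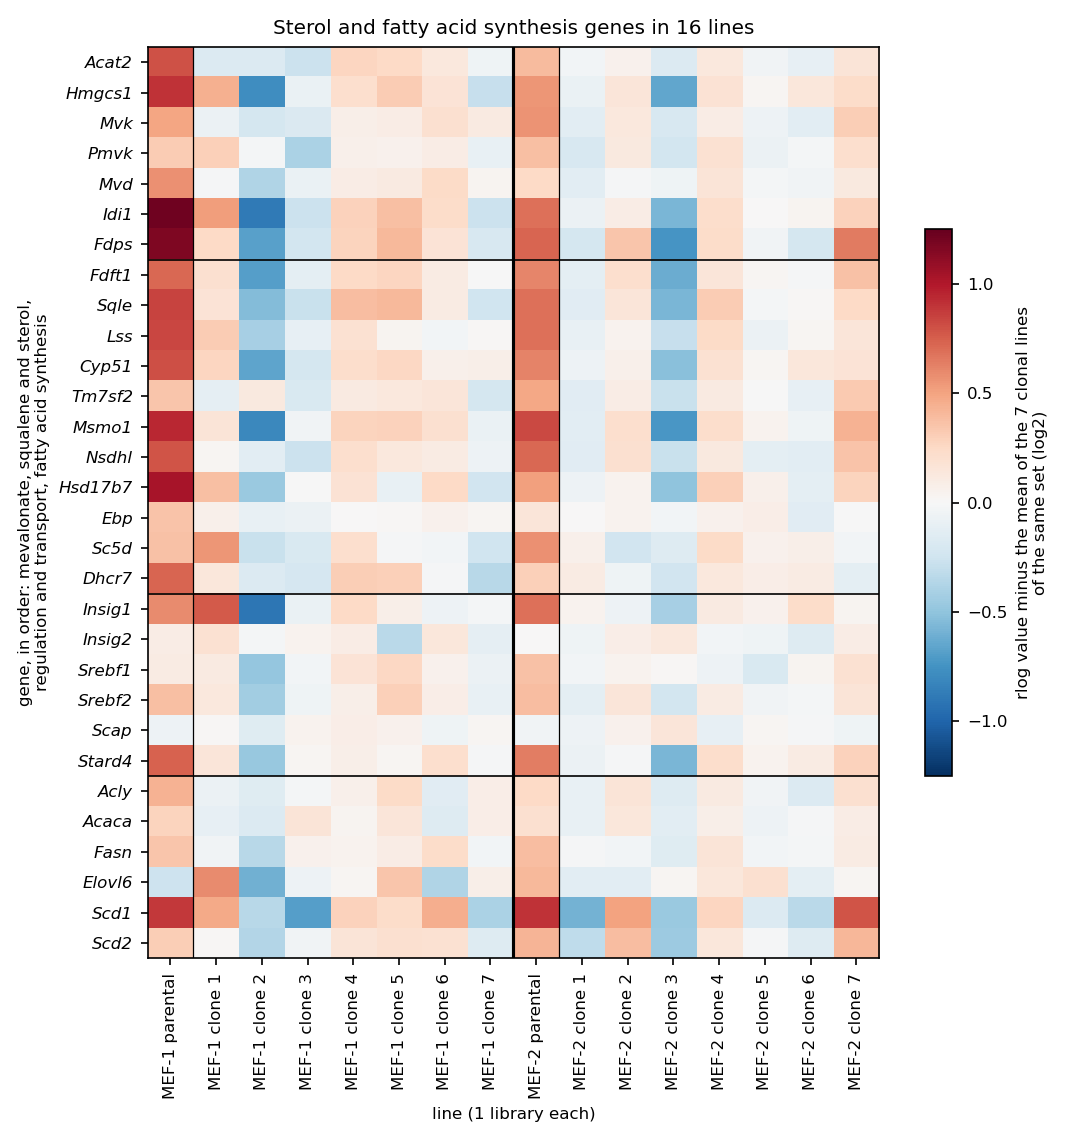
Each cell is the deviation of the rlog value of a gene in a line from the clonal mean of its set (n = 7, log2 scale, colour), with the 30 genes in rows by segment and the 16 lines in columns. The columns of both parental lines are red in nearly every row, MEF-1 clone 2 is lowest of its set in 23 members and MEF-2 clone 3 in 21.

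Averaged over the sets, Idi1 and Fdps, at the exit of the mevalonate segment, had the largest parental differences (both 0.95), although in MEF-2 alone Scd1 (0.90) and Msmo1 (0.82) differed more. Idi1, isopentenyl diphosphate isomerase, is given in full. Idi1 read 12.25, 10.85, 11.46, 12.02, 12.11, 11.96 and 11.46 in MEF-1 clonal lines 1 to 7, 12.20, 12.36, 11.70, 12.49, 12.28, 12.31 and 12.56 in MEF-2 clonal lines 1 to 7, and 12.95 and 12.96 in the MEF-1 and MEF-2 parental lines. Both parental lines were above every clone, by 1.22 in MEF-1 and 0.69 in MEF-2 over the clonal means. Fdps, farnesyl diphosphate synthase, differed by 1.17 in MEF-1 and 0.72 in MEF-2, although MEF-2 clone 7 (13.20) came close to its parental line (13.28). Hmgcs1, the cytosolic HMG-CoA synthase, lay at 14.64 in the MEF-1 parental line against 12.96 to 14.18 in its clones, and at 14.74 in the MEF-2 parental line against 13.54 to 14.42. Mvk and Pmvk, the kinases of the segment, differed less: 0.49 in MEF-1 and 0.56 in MEF-2 for Mvk and 0.31 in MEF-1 and 0.37 in MEF-2 for Pmvk, where MEF-1 clone 1 (10.07) almost reached its parental line (10.09). Acat2 differed by 0.80 in MEF-1 and 0.40 in MEF-2, and Mvd, the decarboxylase, by 0.57 in MEF-1 and 0.25 in MEF-2.

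Past squalene the picture was alike. Lss read 12.19, 11.46, 11.77, 12.07, 11.91, 11.84 and 11.89 in MEF-1 clonal lines 1 to 7, 12.08, 12.21, 11.88, 12.41, 12.10, 12.19 and 12.32 in MEF-2 clonal lines 1 to 7, and 12.71 and 12.86 in the MEF-1 and MEF-2 parental lines. Lss encodes lanosterol synthase, which closes the sterol rings, and its parental values lay above the clonal means by 0.83 in MEF-1 and 0.69 in MEF-2. Sqle, squalene epoxidase, differed by 0.84 in MEF-1 and 0.69 in MEF-2. Msmo1, the sterol C4 methyl oxidase, differed by 0.94 in MEF-1 and 0.82 in MEF-2, Hsd17b7, a ketosteroid reductase of the same demethylation complex, by 1.03 in MEF-1 and 0.51 in MEF-2, and Cyp51, the lanosterol demethylase, by 0.81 in MEF-1 and 0.62 in MEF-2. Fdft1 (squalene synthase), Dhcr7 (7-dehydrocholesterol reductase) and Tm7sf2 (a sterol reductase) had differences of 0.72 in MEF-1 and 0.60 in MEF-2, 0.73 in MEF-1 and 0.30 in MEF-2, and 0.35 in MEF-1 and 0.47 in MEF-2, respectively. Sc5d, the C5 desaturase, was the exception of the segment, as the MEF-1 parental line (12.79) was below MEF-1 clone 1 (12.98).

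The regulators divided. Scap differed from the clonal mean by -0.06 in MEF-1 and -0.04 in MEF-2 and Insig2 by 0.09 in MEF-1 and 0.00 in MEF-2, and both parental lines lay within their clones for both genes. Insig1, itself a target of SREBP, was above all clones in MEF-2 (13.43 against 12.33 to 12.97), whereas in MEF-1 clone 1 (13.77) exceeded the parental line (13.60). Srebf2, the SREBP gene of the sterol branch, differed by 0.37 in MEF-1 and 0.39 in MEF-2 and was above all clones in both sets. Srebf1, the SREBP gene of the fatty acid branch, lay within its clones in MEF-1 (13.48 against 12.89 to 13.63) and above them in MEF-2 (13.03 against 12.47 to 12.85). Stard4, a carrier of cholesterol between membranes, differed by 0.74 in MEF-1 and 0.63 in MEF-2.

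Among fatty acid synthesis genes the parental differences came to 0.43 in MEF-1 and 0.25 in MEF-2 for Acly (ATP citrate lyase), 0.28 in MEF-1 and 0.20 in MEF-2 for Acaca (acetyl-CoA carboxylase), 0.35 in MEF-1 and 0.38 in MEF-2 for Fasn (fatty acid synthase), 0.88 in MEF-1 and 0.90 in MEF-2 for Scd1 and 0.30 in MEF-1 and 0.42 in MEF-2 for Scd2 (stearoyl-CoA desaturases). Elovl6, the elongase of palmitate, was the exception: its MEF-1 parental value (13.09) was within the clones (12.75 to 13.94), below their mean by 0.26, whereas its MEF-2 parental value (12.84) was above all of them (12.30 to 12.63). Whether the parental difference of Elovl6 itself differs between the sets was not tested.

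**Figure D2:**
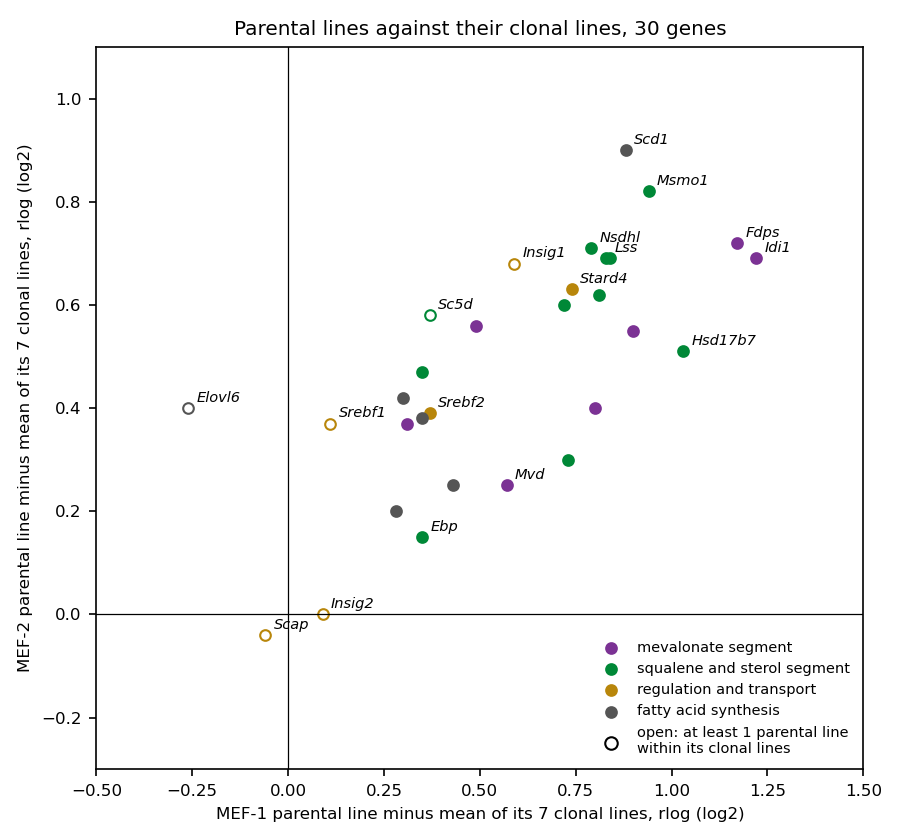
Each point is a gene, placed by the parental value minus its clonal mean (n = 7), for MEF-1 on the horizontal and for MEF-2 on the vertical axis (rlog, log2 scale). The 24 filled points are above every clone in both sets, Idi1 and Fdps are farthest to the right, and Scap and Insig2 are near 0 on both axes.

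A limma fit over all 16 lines, with set and parental origin as terms, was added after these values were seen. This fit set 2 parental libraries, 1 per set, against 14 clonal lines, so its SE and p rest mostly on the spread between clones. It called 2 members at an adjusted p under 0.05, Lss with a difference of 0.76 ± 0.14 (SE, adjusted p = 0.0369) and Nsdhl with 0.75 ± 0.14 (adjusted p = 0.0451), both higher in the parental lines. Of all 15278 genes, 31 were called (0.203%). At an unadjusted p under 0.05, 25 members were higher in the parental lines and 0 lower, against 8.71% of all genes for higher. These members share the same parental libraries and varied together, so they are not independent. An exact permutation of the parental position within each set has 64 arrangements, so its p cannot go below 0.0156. By this two-sided test 24 members had an unadjusted p under 0.05. The share of all genes under this threshold is not given here, so this count has no background to be read against. The call on Lss and Nsdhl was not stable: between 0 and 4 members were called when a clonal line was left out, with 4 (Acat2, Mvk, Lss and Nsdhl) without MEF-2 clone 7 and 0 without MEF-1 clone 3 or 7 or MEF-2 clone 1, 2, 5 or 6. The count of members with an unadjusted p under 0.05 stayed at 25 or 26 in these fits.

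Proliferation markers (Mki67, Top2a, Ccnb1, Cdk1, Mcm2, Mcm5, Pcna and Ccna2) moved with part of this pattern. Their median difference from the clonal mean was 1.13 in the MEF-1 parental line and 0.19 in the MEF-2 parental line, and the MEF-1 parental line was above all its clones in 8 of the 8 markers, the MEF-2 parental line in 0. The 18 mevalonate and sterol genes had medians of 0.79 and 0.57 in the same lines. MEF-1 clone 5 had a marker median of 0.91 with a sterol gene median of 0.20, and MEF-1 clone 1 had -0.63 with 0.18. In some other clones the medians were close, as in MEF-1 clone 3 (-0.21 with -0.19) and MEF-2 clone 7 (0.24 with 0.24). In MEF-2 clone 6 they were not (-0.37 with -0.04). Thy1, a surface marker of fibroblasts, was also above all clones in both parental lines (6.12 in MEF-1 and 10.22 in MEF-2, against at most 3.43 and 8.02), the only 1 of the 10 fibroblast markers to be so. The part of these markers in the parental difference was not tested.

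The clonal lines also differed from each other. MEF-1 clone 2 was the lowest of its set in 23 of 30 members, against 20.5% of all genes, and MEF-2 clone 3 in 21, against 23% of all genes. At the other end, MEF-2 clone 7 was the highest of its set in 16 members (24.6% of all genes). These lines were singled out after their values were seen. In MEF-1 clone 2 the median over the 18 mevalonate and sterol genes was -0.39, with proliferation markers at -0.41. In MEF-2 clone 3 the medians were -0.28 and -0.32. Insig1 had the largest SD of the members among MEF-1 clones (0.50), with values from 12.10 in clone 2 to 13.77 in clone 1. In MEF-2 clones it was Scd1 (0.52), from 11.81 in clone 1 to 13.19 in clone 7.

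**Figure D3:**
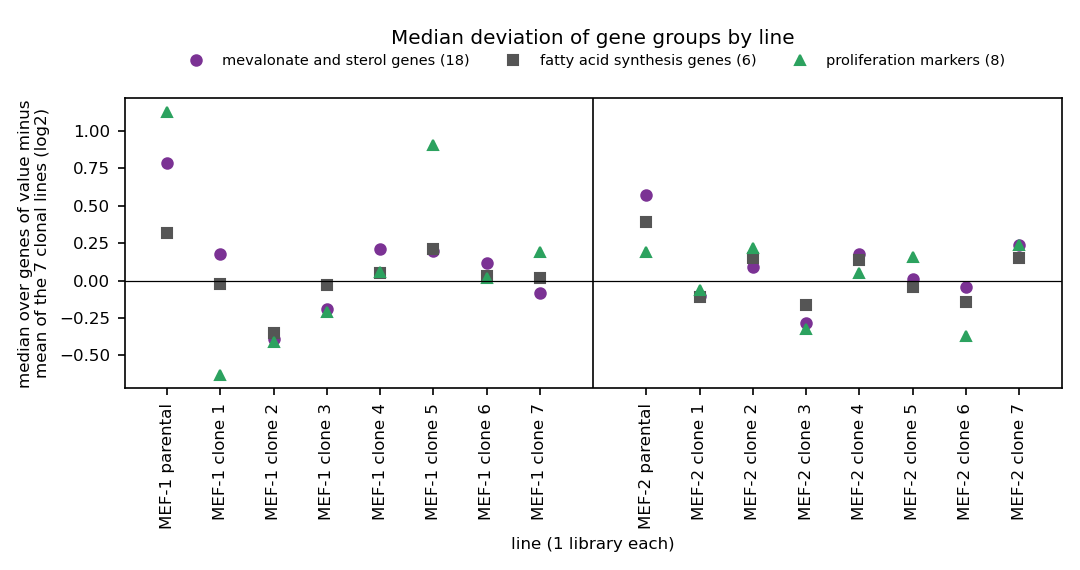
Median over genes of the deviation from the clonal mean of the set (n = 7, vertical axis, log2 scale), by line, for 18 mevalonate and sterol genes, 6 fatty acid synthesis genes and 8 proliferation markers. Sterol genes are highest in both parental lines (0.79 and 0.57) and lowest in MEF-1 clone 2 (-0.39) and MEF-2 clone 3 (-0.28), while the markers of MEF-1 clone 1 (-0.63) and clone 5 (0.91) stand apart from its sterol genes.

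The SD between clonal lines had a median over members of 0.230 in MEF-1 and 0.181 in MEF-2, against 0.199 and 0.164 over all genes tested. Over the 9996 genes within the range of averages of the members, the medians were 0.154 and 0.125, and 26 members in MEF-1 and 22 in MEF-2 had a larger SD than that. Ebp, the sterol isomerase, and Scap were the least variable members, with SDs of 0.06 and 0.08 in MEF-1 and 0.08 and 0.09 in MEF-2.

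In most segments the members varied together from clone to clone. The median Pearson r over the 435 pairs of members was 0.65 in MEF-1 and 0.69 in MEF-2, against 0.00 and 0.01 over all pairs of genes tested. Each r is over the 7 clones of a set, and all pairs share these 7 libraries and their scaling. Without MEF-1 clone 2 the median was 0.46, and without MEF-2 clone 3 it was 0.64. Within the mevalonate and sterol segments it was 0.70 and 0.80, and 0.66 and 0.81 without these clones. In MEF-2 the 2 segments parted without clone 3. The mevalonate median went from 0.85 to 0.89. The squalene and sterol median went from 0.76, with 53 of 55 pairs above 0, to 0.62, with 40. In MEF-1 the squalene and sterol median was 0.68, and 0.64 without clone 2. Among the 15 pairs of regulation and transport genes the median was 0.75 in MEF-1, and 0.29 without clone 2, whereas in MEF-2 it was 0.09, with 8 of the 15 pairs above 0, and 0.11 without clone 3. For the 15 pairs of fatty acid synthesis genes it was 0.42 in MEF-1, and 0.10 without clone 2, and it was 0.62 in MEF-2, and 0.50 without clone 3.

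For chosen pairs the relation was tested across the 7 clones of each set with two-sided exact permutation tests, adjusted over 14 relations, for which the smallest unadjusted p is 0.000198. Hmgcs1 and Idi1 had r = 0.99 in MEF-1 (rho = 0.96, exact adjusted p = 0.00278 for r and 0.00778 for rho) and r = 0.98 in MEF-2 (rho = 1.00, exact adjusted p = 0.00278 and 0.00556). Without the 2 lines farthest from the median of Hmgcs1, r was 0.98 and 0.84. Hmgcs1 and Sqle had r = 0.90 in MEF-1 (rho = 0.86, exact adjusted p = 0.00937 and 0.0417) and r = 0.96 in MEF-2 (rho = 0.96, exact adjusted p = 0.00333 and 0.00778), with 0.74 and 0.79 without those lines. Hmgcs1 and Srebf2 had r = 0.95 in MEF-1 (rho = 0.93, exact adjusted p = 0.00648 and 0.0157) and r = 0.86 in MEF-2 (rho = 0.96, exact adjusted p = 0.00333 and 0.00778), with 0.76 and 0.77 without them.

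Hmgcs1 and Insig1 had r = 0.89 in MEF-1 (rho = 0.86, exact adjusted p = 0.00833 and 0.0417; 0.78 without those lines). In MEF-2 their r of 0.85 (rho = 0.25, exact adjusted p = 0.0859 and 0.641) rested on those lines, as it was -0.03 without them. Hmgcs1 and Fasn did not pass the threshold in either set, with r = 0.73 (rho = 0.29, exact adjusted p = 0.0859 and 0.641) and r = 0.76 (rho = 0.64, exact adjusted p = 0.0651 and 0.216), and -0.34 and 0.64 without those lines. Srebf1 and Fasn had r = 0.80 in MEF-1 (rho = 0.50, exact adjusted p = 0.0778 and 0.339) and 0.15 in MEF-2 (rho = -0.07, exact adjusted p = 0.777 and 0.906), with 0.09 and -0.68 without the lines farthest from the median of Srebf1. Scd1 and Scd2, neighbours on chromosome 19 and paralogs between which reads may be divided with uncertainty, had r = 0.69 in MEF-1 (rho = 0.54, exact adjusted p = 0.0887 and 0.33) and 0.96 in MEF-2 (rho = 0.96, exact adjusted p = 0.00333 and 0.00778), with 0.84 and 0.89 without the lines farthest from the median of Scd1.

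Between the clonal sets, 16 of 30 members were called by limma at an adjusted p under 0.05, of which 11 were higher in MEF-2 (27.5% of all genes tested were) and 5 lower (28.6%). Over all genes 56.1% were called, so the total of the members (16 of 30) is near the share of all genes. A difference of 0.5 or more was called in 7 members, against 29.9% of all genes. By segment, 5 of 7 mevalonate genes and 5 of 11 squalene and sterol genes rose in MEF-2 and 1 of these 11 fell, 3 of 6 regulation and transport genes fell and none rose, and among fatty acid synthesis genes 1 rose and 1 fell. The median difference was 0.44 for mevalonate genes, 0.29 for squalene and sterol genes, -0.23 for regulation and transport and 0.00 for fatty acid synthesis, beside -0.0044 over all genes. All 8 proliferation markers were higher in the MEF-2 clonal lines by this fit, with a median difference of 0.92, and their part in the sterol gene differences was not tested.

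**Figure D4:**
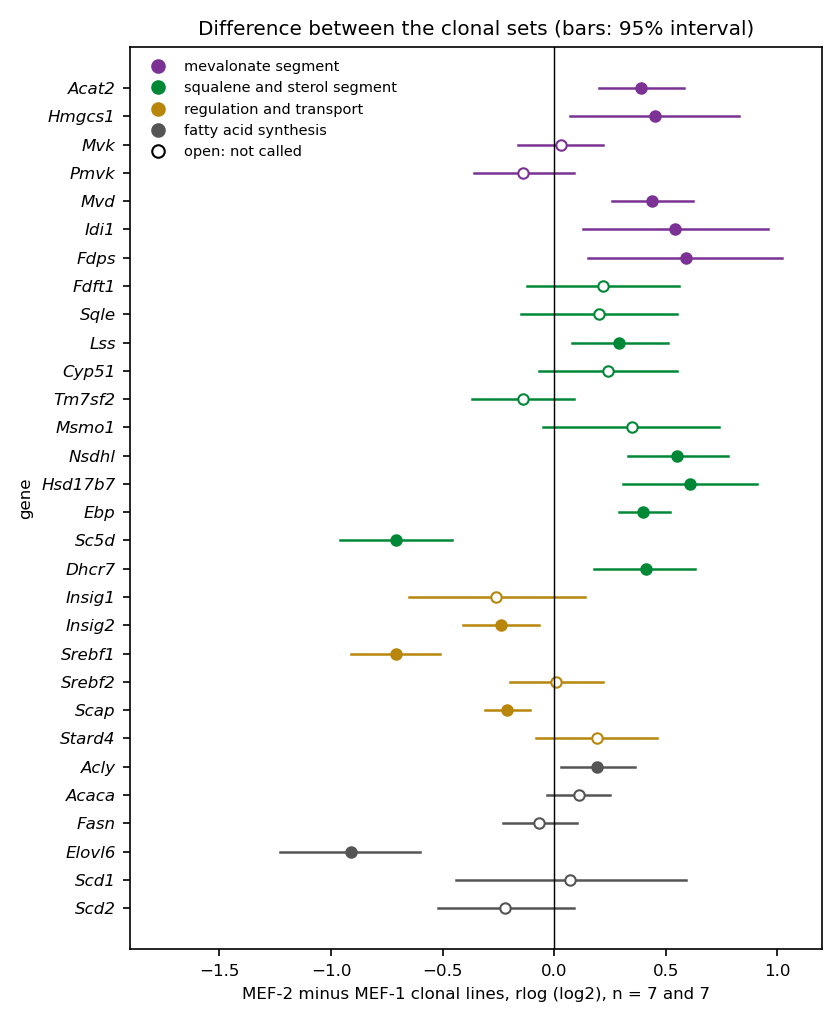
Difference of MEF-2 minus MEF-1 clonal lines for each gene (rlog, log2 scale; n = 7 and 7), with the 95% interval of the limma fit as a bar, coloured by segment, and filled where the adjusted p was under 0.05. The filled mevalonate genes lie right of 0, from 0.39 to 0.59, and Elovl6 (-0.91), Srebf1 and Sc5d (both -0.71) lie farthest to the left.

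The members with the largest called rise in MEF-2 were Hsd17b7, Fdps and Nsdhl. Hsd17b7 read 11.66, 10.82, 11.28, 11.47, 11.19, 11.54 and 11.05 in MEF-1 clonal lines 1 to 7, 11.84, 11.94, 11.40, 12.20, 11.96, 11.78 and 12.18 in MEF-2 clonal lines 1 to 7, and 12.32 and 12.41 in the MEF-1 and MEF-2 parental lines. The sets overlapped, and the difference was 0.61 ± 0.14 (SE, adjusted p = 0.00178), a fold of 1.53. Fdps read 12.21, 11.29, 11.74, 12.24, 12.37, 12.14 and 11.77 in MEF-1 clonal lines 1 to 7, 12.33, 12.90, 11.81, 12.78, 12.51, 12.33 and 13.20 in MEF-2 clonal lines 1 to 7, and 13.13 and 13.28 in the MEF-1 and MEF-2 parental lines. The sets overlapped here as well, with a difference of 0.59 ± 0.20 (SE, adjusted p = 0.0239). The call on Fdps was lost without MEF-2 clone 2 or 7, and with the parental lines included. Nsdhl read 9.82, 9.66, 9.52, 10.00, 9.92, 9.90 and 9.73 in MEF-1 clonal lines 1 to 7, 10.20, 10.54, 10.07, 10.47, 10.22, 10.21 and 10.70 in MEF-2 clonal lines 1 to 7, and 10.58 and 11.06 in the MEF-1 and MEF-2 parental lines. Nsdhl encodes a sterol dehydrogenase of C4 demethylation and lies on the X chromosome. Its lowest MEF-2 clone was above the highest MEF-1 clone, and the difference was 0.55 ± 0.11 (SE, adjusted p = 0.000436).

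Ebp, the second member on the X chromosome, was also higher in MEF-2 without overlap. Ebp read 10.16, 10.00, 10.02, 10.10, 10.11, 10.15 and 10.12 in MEF-1 clonal lines 1 to 7, 10.50, 10.54, 10.46, 10.55, 10.58, 10.36 and 10.49 in MEF-2 clonal lines 1 to 7, and 10.45 and 10.65 in the MEF-1 and MEF-2 parental lines. The difference was 0.40 ± 0.05 (SE, adjusted p = 1.23e-05). Over 508 genes of the X chromosome the median differed by 0.06 between the sets, and with the chromosome median of each line taken away Ebp differed by 0.34 and Nsdhl by 0.49, both still called. Mvd was the remaining member without overlap that was higher in MEF-2 (10.19 ± 0.20 in MEF-1 and 10.63 ± 0.10 in MEF-2, SD), with a difference of 0.44 ± 0.08 (SE, adjusted p = 0.000487). Such a separation, with MEF-2 higher, was found for 3 members (12.3% of all genes), and with MEF-1 higher for 3 (13.6%).

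Further members that rose in MEF-2 were Dhcr7, by 0.41 ± 0.10 (SE, adjusted p = 0.00402), Acat2, by 0.39 ± 0.09 (SE, adjusted p = 0.00178), Idi1, by 0.54 ± 0.20 (SE, adjusted p = 0.028), Lss, by 0.29 ± 0.10 (SE, adjusted p = 0.0223), Hmgcs1, by 0.45 ± 0.18 (SE, adjusted p = 0.0432), and Acly, by 0.19 ± 0.08 (SE, adjusted p = 0.0395). The call on Hmgcs1 was lost in 16 and that on Acly in 12 of the 24 alternatives tried, those on Idi1 without MEF-1 clone 3 or 7 or MEF-2 clone 4 or 7, and those on Idi1 and Lss with the parental lines included. Sterol genes without a call had differences of 0.35 (95% interval -0.05 to 0.74) for Msmo1, 0.24 (95% interval -0.07 to 0.55) for Cyp51, 0.22 (95% interval -0.12 to 0.56) for Fdft1 and 0.20 (95% interval -0.15 to 0.55) for Sqle. Without MEF-2 clone 3, Msmo1 (0.47, adjusted p = 0.0226) and Cyp51 (0.33, adjusted p = 0.0473) passed the threshold of the limma fit. For Mvk the difference was 0.03 (95% interval -0.16 to 0.22) and for Pmvk -0.14 (95% interval -0.36 to 0.09).

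The members that fell most in MEF-2 were Elovl6, Srebf1 and Sc5d, and in all 3 the clonal sets did not overlap. Elovl6 read 13.94, 12.75, 13.29, 13.38, 13.70, 12.98 and 13.42 in MEF-1 clonal lines 1 to 7, 12.30, 12.30, 12.46, 12.58, 12.63, 12.31 and 12.46 in MEF-2 clonal lines 1 to 7, and 13.09 and 12.84 in the MEF-1 and MEF-2 parental lines. Its difference was -0.91 ± 0.15 (SE, adjusted p = 0.00011), so the MEF-1 clonal lines were 1.88-fold higher. Srebf1 read 13.49, 12.89, 13.34, 13.55, 13.63, 13.43 and 13.30 in MEF-1 clonal lines 1 to 7, 12.63, 12.71, 12.68, 12.60, 12.47, 12.70 and 12.85 in MEF-2 clonal lines 1 to 7, and 13.48 and 13.03 in the MEF-1 and MEF-2 parental lines. The difference of Srebf1 was -0.71 ± 0.09 (SE, adjusted p = 1.73e-05). Sc5d read 12.98, 12.15, 12.23, 12.63, 12.41, 12.39 and 12.18 in MEF-1 clonal lines 1 to 7, 11.78, 11.48, 11.56, 11.96, 11.77, 11.79 and 11.68 in MEF-2 clonal lines 1 to 7, and 12.79 and 12.29 in the MEF-1 and MEF-2 parental lines. The difference of Sc5d was -0.71 ± 0.12 (SE, adjusted p = 0.000143), against the direction of the other called genes of its segment. Srebf1 overlaps Rai1, which lies on the other strand. Mvd, Fdft1 and Cyp51 likewise overlap a protein-coding gene of the other strand (Gm20388, Ctsb and Akap9, respectively). The libraries were made with a directional kit, which keeps the strand of the RNA, whereas the library type set in the quantification is not given in the sources used here.

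**Figure D5:**
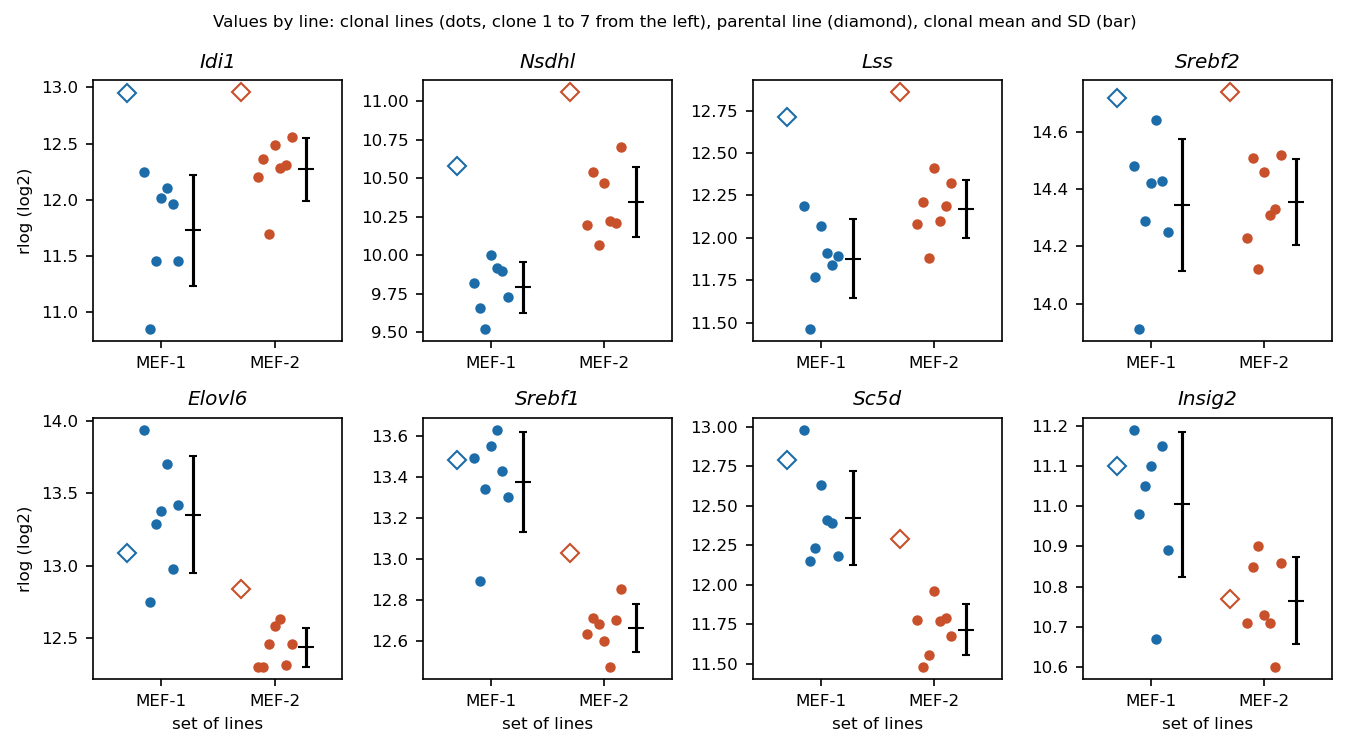
Rlog values (log2 scale) of 8 genes by set, with the 7 clonal lines as dots (clone 1 to 7 from left to right), the parental line as an open diamond, and the mean ± SD of the clonal lines as a bar. The diamonds of Idi1, Nsdhl, Lss and Srebf2 are above all dots of their set, whereas Elovl6, Srebf1 and Sc5d separate the sets, and the diamonds of Insig2 are within the dots.

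Differences of the other regulators were smaller. Srebf2 had the same mean in both (14.35 ± 0.23 in MEF-1 and 14.35 ± 0.15 in MEF-2, SD), with a difference of 0.01 (95% interval -0.20 to 0.22). Insig2 fell by 0.24 ± 0.08 (SE, adjusted p = 0.0175) and Scap by 0.21 ± 0.05 (adjusted p = 0.00159) in MEF-2. For Insig1 the difference was -0.26 (95% interval -0.65 to 0.14), and it was called (-0.41, adjusted p = 0.0192) without MEF-1 clone 2. Fasn had a difference of -0.07 (95% interval -0.23 to 0.10) and Acaca of 0.11 (95% interval -0.03 to 0.25).

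Members on chromosomes of abnormal copy number are given by line. The median of 416 genes of chromosome 18 was lower in MEF-1 clones 1, 4 and 5 (-0.46, -0.49 and -0.42) than in the other MEF-1 clones (0.04 to 0.15) and the MEF-2 clones (0.12 to 0.16). Stard4 read 11.73, 11.11, 11.61, 11.66, 11.61, 11.79 and 11.57 in MEF-1 clonal lines 1 to 7, 11.70, 11.76, 11.20, 11.99, 11.82, 11.87 and 12.06 in MEF-2 clonal lines 1 to 7, and 12.32 and 12.41 in the MEF-1 and MEF-2 parental lines. Clones 1, 4 and 5 were thus not the lowest MEF-1 clones for Stard4, which was lowest in clone 2. The difference between the sets was 0.19 (95% interval -0.08 to 0.46), and -0.09 with the chromosome median taken away. It was called without MEF-2 clone 3 (0.29, adjusted p = 0.0243).

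On chromosome 19 the median of 531 genes was 0.18 in MEF-1 and -0.19 in MEF-2 clonal lines. Tm7sf2 read 8.81, 9.05, 8.73, 9.04, 9.06, 9.08 and 8.70 in MEF-1 clonal lines 1 to 7, 8.64, 8.87, 8.50, 8.89, 8.78, 8.68 and 9.11 in MEF-2 clonal lines 1 to 7, and 9.27 and 9.26 in the MEF-1 and MEF-2 parental lines. Scd1 read 12.80, 11.98, 11.64, 12.62, 12.56, 12.78 and 11.93 in MEF-1 clonal lines 1 to 7, 11.81, 12.91, 11.94, 12.67, 12.23, 12.07 and 13.19 in MEF-2 clonal lines 1 to 7, and 13.21 and 13.31 in the MEF-1 and MEF-2 parental lines. Scd2 read 16.52, 16.14, 16.46, 16.67, 16.71, 16.70 and 16.35 in MEF-1 clonal lines 1 to 7, 15.98, 16.68, 15.84, 16.43, 16.28, 16.13 and 16.71 in MEF-2 clonal lines 1 to 7, and 16.81 and 16.72 in the MEF-1 and MEF-2 parental lines. The sets overlapped in all 3 genes, and MEF-2 clones 2 and 7 were the highest of their set for both desaturases. Differences were -0.14 (95% interval -0.37 to 0.09) for Tm7sf2, 0.07 (95% interval -0.44 to 0.59) for Scd1 and -0.22 (95% interval -0.52 to 0.09) for Scd2, and 0.22, 0.44 and 0.15 with the chromosome median taken away, so that the sign of Tm7sf2 and Scd2 depended on this step and none of the 3 was called either way. Tm7sf2 overlaps Vps51 on the same strand in the annotation, as Fdps does Gm43738 and Acaca Gm11437, and reads may be divided between such genes with uncertainty.

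Other genes of lipid metabolism were counted from 5 further lists, 58 genes in all. By the same fit 11 were higher in MEF-2 clonal lines (19%, against 27.5% of all genes) and 22 lower (37.9%, against 28.6%). Both parental lines lay above their clones in 6 of 58 (10.3%, against 4.85% of all genes and 24 of the 30 members). In the isoprenoid branch 2 of 10 rose and 1 fell, in SREBP processing and its cofactors 2 of 11 rose and 4 fell, in fatty acid supply, elongation and activation 4 of 15 rose and 5 fell, in triglyceride and phospholipid assembly 7 of 10 fell and none rose, and in sterol uptake, storage and efflux 3 of 12 rose and 5 fell. The called genes with the largest differences were Agpat3, a lysophosphatidic acid acyltransferase, which fell by 3.20 ± 0.14 (SE, adjusted p = 2.96e-10) in MEF-2, Acacb, the mitochondrial acetyl-CoA carboxylase, which fell by 2.41 ± 0.21 (adjusted p = 2.40e-07), Nr1h3, which encodes the oxysterol receptor LXR alpha and fell by 1.32 ± 0.37 (adjusted p = 0.00654), and Fntb, the beta subunit of farnesyltransferase, which rose by 1.09 ± 0.08 (adjusted p = 4.13e-08). The letters bound by NF-Y and by Sp1 were each present at 20 of the 24 members with a promoter entry. For the genes of these factors, differences between the sets were -0.14 (Nfya), -0.05 (Nfyb), 0.15 (Nfyc) and -0.18 (Sp1), with Nfyc and Sp1 called.

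Adipocyte markers were counted because lipogenic genes are high in fat cells. Of 5 in the fit, 4 were lower in MEF-2 clonal lines (28.6% of all genes were) and none higher, with Pparg at 9.12 ± 0.55 in MEF-1 and 5.35 ± 0.55 in MEF-2 and Cebpa at 7.64 ± 0.25 and 4.68 ± 0.40 (SD, n = 7). The sum of the list, added off the log2 scale and then logged, was 9.80 to 10.71 in MEF-1 clones and 7.46 to 8.64 in MEF-2 clones. In the MEF-1 and MEF-2 parental lines it was 9.66 and 8.28. Genes with the highest values, such as Pparg and Fabp4 (clonal means 8.53 in MEF-1 and 7.15 in MEF-2), weigh most in this sum. The defining genes Adipoq and Cidec were below 0 throughout. The part of these markers in the differences of Elovl6, Srebf1 and Sc5d was not tested. Both parental lines were above all their clones in 0 of the 5 adipocyte markers in the fit.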

How the data were processed

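Total RNA of 16 lines was sequenced. The authors trimmed reads with Trim Galore 0.6.0, quantified transcripts of mm10 (Ensembl release 102) with Salmon 1.5.2, and deposited rlog values of DESeq2 1.24.0, on the log2 scale, 1 per gene and line, scaled by library size, with differences of weakly covered genes shrunken. How gene values were summed and whether the transformation was blind are not given in the sources used here. No counts are given, so depth is unknown and no counting interval can be drawn. Rows were mapped to lines by their label (0 without a sample).

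Genes were matched by identifier to GENCODE mouse release 21 (coordinates 1-based, GRCm38). The 7 MEF-2 and 7 MEF-1 clonal lines were compared with limma 3.58.1 (R 4.3.3, trended prior) on all 15278 protein-coding genes with an average above 0, calling genes at an adjusted p (Benjamini-Hochberg) under 0.05 and, as a second call, at a difference of 0.5 or more. P-values measure the spread between clonal lines of 1 embryo each. In simulated data of this comparison with 200 of 15278 genes shifted by 0.5, 109 were recovered with 9 false calls, and 181 with 3 at a shift of 1. For the parental fit 86 and 137 were recovered. Exact permutation tests were two-sided (scipy 1.17.1). Promoter windows were searched for fixed letters.

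Members and lists were chosen with earlier results of these data known. Values by line were given for the 3 members with the largest called difference in each direction, for those whose sets did not overlap and differed by 0.5 or more, and for members on chromosomes 18, 19 and X. Idi1 and Lss were added after their values were seen. Of the other genes, the called ones with the 4 largest differences were named. The parental fit, its alternatives and the fits without clones that stood apart were chosen after the data were seen.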

Additional observations from a re-analysis of the deposited data

Results flagged for a closer look

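In 60 sets of 7 clonal values (30 members in 2 sets of clones) a Dixon test at 95% flagged 7, where chance would flag about 3, and members that vary together are not independent. In MEF-1 the flagged line was clone 2 each time: Fdft1 at 11.07 (next lowest clone 11.64), Msmo1 at 11.05 (11.77) and Stard4 at 11.11 (11.57). In MEF-2 it was clone 3 each time: Hmgcs1 at 13.54 (next lowest 14.11), Idi1 at 11.70 (12.20), Cyp51 at 12.92 (13.38) and Stard4 at 11.20 (11.70). All 7 are low values, and Stard4 was flagged in both sets. The median of chromosome 14, which holds Fdft1, was -0.20 in MEF-1 clone 2 and -0.22 in MEF-2 clone 3. None of the other flagged genes lies on that chromosome.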

How the results depend on the processing

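The number of members called between the clonal sets (16) was 11 to 16 under the other filters, priors, scalings and tests, and 12 to 19 with a clonal line left out. Members called with a difference of 0.5 or more (7) numbered 4 to 8 when a clonal line was left out, with 4 without MEF-2 clone 7. Same-numbered clones share only a number: 2 of 7 same-number correlations were over 0.1 and 1 MEF-1 clone matched its own number best. With the clone number as a replicate block 15 members and 8222 of all genes were called, beside 16 and 8569. Over all genes, centring each line on its autosomal median moved the median difference from -0.004 to -0.038 and the calls from 4205 higher and 4364 lower to 3825 and 4744. Of 720 differences of members under alternatives, 679 kept their side of the threshold, 37 lost a call, 4 gained one and no call turned its sign.

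Parental against clonal lines, 2 members were called, 0 with a prior without trend, 0 in MEF-1 or MEF-2 lines alone, and 0 to 4 with a clonal line left out. The exact test, unadjusted, gave 24, with no share of all genes beside it. Over all genes the count went from 31 to between 15 and 137, the latter without MEF-2 clone 7. Parental lines stood outside their clones in 23 to 25 members in MEF-1 and in 28 in MEF-2 under the alternatives tried, and median SDs were 0.174 to 0.250 and 0.136 to 0.196. With chromosome medians taken away, Hmgcs1 and Fasn correlated past the threshold in MEF-2 (r = 0.79, exact adjusted p = 0.0494). Unknown depth limits what can be said of single libraries.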

Other observations

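Outside the 30 members, 6 of the 58 other lipid genes had both parental lines above all their clones. The largest parental difference among them was that of Lrp8, a receptor of the lipoprotein receptor family, at 11.71 in the MEF-1 parental line against 9.72 to 10.73 in its clones and at 11.55 in the MEF-2 parental line against 9.98 to 10.85. Me1, the malic enzyme that supplies NADPH for lipid synthesis, was at 13.15 against 12.23 to 12.68 and at 13.14 against 11.65 to 12.78. Pdss1, a subunit of the synthase of the coenzyme Q side chain, was at 8.91 against 7.73 to 8.46 and at 8.84 against 7.44 to 8.55. These genes were picked after their values were seen. In the parental fit their differences were 1.28 ± 0.23 for Lrp8, 0.68 ± 0.19 for Me1 and 0.73 ± 0.25 for Pdss1 (SE). Whether that fit called them is not given here.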
